A study of Mus musculus with 2 samples.

Results

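The 9 genes described here are the homeostatic chemokines Cxcl12, Cxcl13, Cxcl14, Ccl19 and Ccl21a and the receptors Cxcr4, Ackr3, Cxcr5 and Ccr7. They were chosen by name, for what is known of them in lymphoid tissue and lymphoid aggregates, from the 27998 genes of the count matrix. Earlier results of these data were known when they were chosen. All 9 were found in it, and their levels were read in every cell class that the authors named. The mice were wild-type C57BL/6J animals without transgenes. They received either LCWE, a Lactobacillus casei cell wall extract that causes a vasculitis used as a model of Kawasaki disease, or phosphate-buffered saline (PBS), in the peritoneum. Their abdominal aortas were taken 2 weeks later. The LCWE group was 1 pool of 7 aortas and the PBS group 1 pool of 9, each made into 1 droplet library, so every difference below is between 2 libraries. No test over animals was possible and no p-value is given.

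Homeostatic chemokines place lymphocytes and dendritic cells in lymphoid organs. CXCL12 is made by stromal cells, signals through CXCR4 and is removed by ACKR3, an atypical receptor that scavenges it. CXCL13 draws cells with CXCR5, mainly B cells, into follicles, and CCL19 and CCL21 draw naive T cells and mature dendritic cells through CCR7. Lymphoid aggregates in inflamed tissue are known for the same ligands, which is why the stromal and leukocyte classes are described side by side.

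The sequences upstream of 4 members are shown because these are the stromal genes that the comparison turns on: Cxcl12, Cxcl13 and Cxcl14, which were higher together in LCWE fibroblasts, and Ackr3, which was lower in LCWE blood endothelium. Each is the 250 bases before the RefSeq start (GRCm38.p6), 5′ to 3′ on the strand of the gene. Capitals mark matches, on either strand, to GGGCGG (a GC box), TATAAA or GAAA, any 2 bases, GAAA (an interferon response pattern). The window of Cxcl12 lies at chr6:117168285-117168534 (+), Cxcl13 at chr5:95956689-95956938 (+), Cxcl14 at chr13:56296552-56296801 (-) and Ackr3 at chr1:90203730-90203979 (+).
Cxcl12: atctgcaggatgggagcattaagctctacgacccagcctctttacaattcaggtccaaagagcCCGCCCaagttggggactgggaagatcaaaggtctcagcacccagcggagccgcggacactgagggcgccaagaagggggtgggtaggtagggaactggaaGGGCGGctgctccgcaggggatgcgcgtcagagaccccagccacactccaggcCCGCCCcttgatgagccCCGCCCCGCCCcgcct
Cxcl13: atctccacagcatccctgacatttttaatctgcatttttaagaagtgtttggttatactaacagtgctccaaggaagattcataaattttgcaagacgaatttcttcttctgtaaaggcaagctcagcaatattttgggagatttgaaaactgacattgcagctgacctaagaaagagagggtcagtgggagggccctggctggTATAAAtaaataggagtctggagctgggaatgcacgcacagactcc
Cxcl14: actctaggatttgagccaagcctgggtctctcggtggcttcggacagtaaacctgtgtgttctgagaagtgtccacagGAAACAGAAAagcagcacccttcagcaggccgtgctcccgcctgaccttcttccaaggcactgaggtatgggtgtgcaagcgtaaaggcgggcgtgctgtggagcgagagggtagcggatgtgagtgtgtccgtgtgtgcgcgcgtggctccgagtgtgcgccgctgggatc
Ackr3: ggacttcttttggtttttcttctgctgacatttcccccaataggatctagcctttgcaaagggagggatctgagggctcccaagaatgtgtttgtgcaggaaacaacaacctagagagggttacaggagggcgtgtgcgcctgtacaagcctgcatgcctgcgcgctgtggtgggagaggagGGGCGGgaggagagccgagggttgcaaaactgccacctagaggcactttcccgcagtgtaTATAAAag

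The window of Cxcl12 was rich in G and C (64.4%, against a median of 52.4% over all promoters of the table) and held 5 GC boxes, of which the last 2 share a base. The Cxcl13 window had 42% G and C and 1 TATAAA, the Ackr3 window 1 GC box and 1 TATAAA, and the Cxcl14 window 1 interferon response pattern. Over all 32851 promoter windows, 32.7% held a GC box, 12.4% a TATAAA and 2.98% an interferon response pattern. The κB consensus, which 7.25% of windows held, was in none of the 7 members that matched the RefSeq table. Cxcr5 and Ccr7 were not matched. These are matches of letters and say nothing of binding.

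The LCWE library had 5091 cells and the PBS library 5386. Transcripts were counted by unique molecular identifiers (UMIs), 42275754 in LCWE and 62600808 in PBS, or 5508 and 11252.5 in the median cell, and 8 cell barcodes occur in both libraries. Levels are given as CPM, the usual scaling of a gene's UMIs to all UMIs of its class. Intervals are exact 95% intervals for counting error and do not cover differences between animals. Counts at the 3′ end do not scale with transcript length, so levels are compared between classes and libraries, not between genes. The authors' names fit their markers in most classes. The class named eosinophils is an exception, with 0.303 UMIs per cell of the eosinophil markers Siglecf, Epx, Prg2 and Ccr3 (Epx and Prg2 at 0) and 242 of neutrophil markers, and is called the named eosinophils here. As a measure of background, 8.80% of the 3534 LCWE leukocytes (median 4474 UMIs) held a UMI of Cxcl12, a stromal gene, and 3.30% did after every cell was thinned to 1500 UMIs.

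Across whole libraries, CPM was higher in LCWE for each member. The share of all genes higher at this level was not computed, so the count is a description and not a result about the members. The smallest ratio was that of Ccl19 (10.2 against 5.93 CPM, 1.72-fold) and the largest that of Cxcr4 (160 against 2.60 CPM, 61.3-fold). Ccr7 followed at 53.7-fold (117 against 2.17 CPM). Cxcr5 had 202 UMIs against 7. The cells captured differed as well, with 3534 leukocytes in LCWE against 116 in PBS and 93 smooth muscle cells against 4141.

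**Figure D1:**
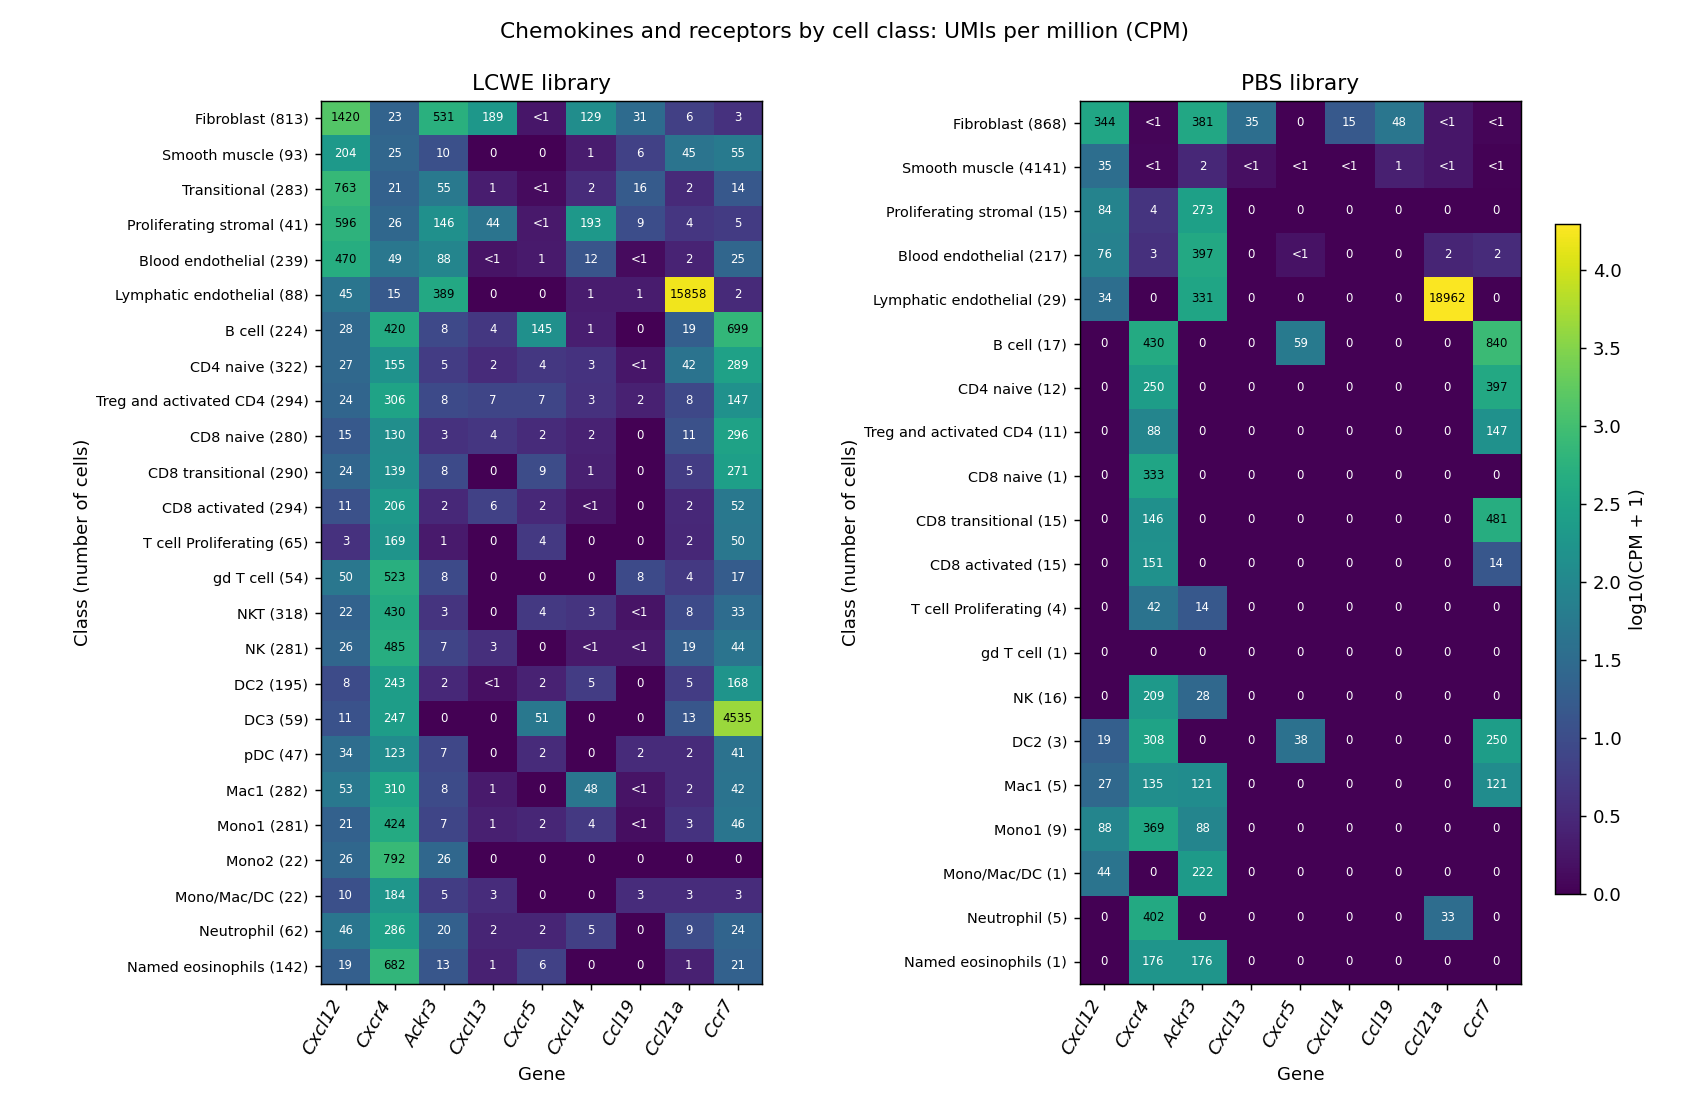
Level of each of the 9 genes (columns) in each authors' class (rows, with its number of cells) in the LCWE library (left) and the PBS library (right), in CPM; colour is log10(CPM + 1) and the printed numbers are CPM. Cxcl12 and Ackr3 stand out in fibroblasts, Ccl21a in lymphatic endothelial cells and Cxcr4, Cxcr5 and Ccr7 in leukocytes, and PBS leukocyte classes have 17 cells or fewer.

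**Figure D2:**
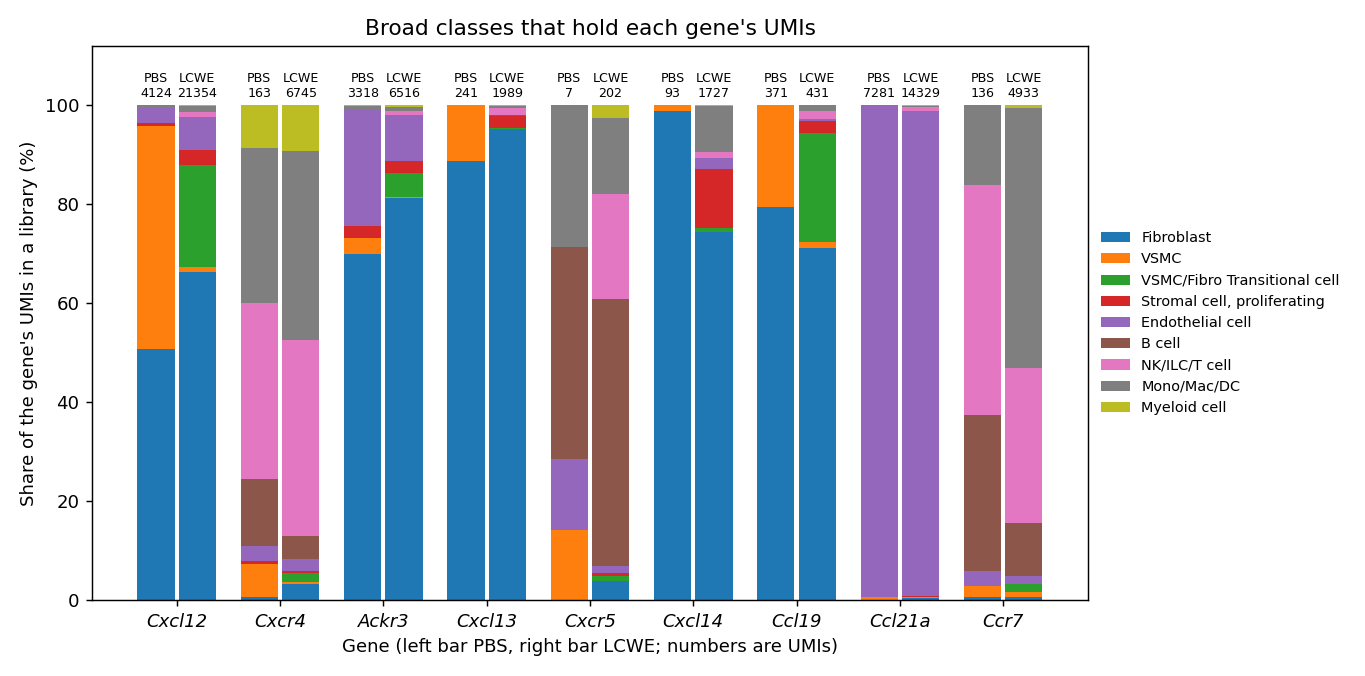
Share of each gene's UMIs (percent, y axis) held by the authors' broad classes, in the PBS (left bar) and LCWE (right bar) library, with the gene's UMIs above each bar. Fibroblasts held 66.4% of Cxcl12 UMIs in LCWE and 50.8% in PBS, and endothelial cells 98.0% and 99.3% of Ccl21a.

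Cxcl12 (chr6:117168535-117181367, + strand, GRCm38) was a gene of the stroma in both libraries and was higher in LCWE in fibroblasts, smooth muscle cells and blood endothelial cells. In LCWE its level was 1420 CPM in fibroblasts, 763 in the class named transitional between smooth muscle cells and fibroblasts (283 cells), 596 in proliferating stromal cells (41 cells), 470 in blood endothelial cells and 204 in smooth muscle cells. The intervals of these neighbours in the order did not overlap. Below them came macrophages of the class Mac1 with 52.7 CPM, where 3 cells held 115 of 156 UMIs. Among the 4 PBS classes with 20 cells or more, fibroblasts led with 344 CPM, followed by blood endothelial cells with 76.2, smooth muscle cells with 34.7 and lymphatic endothelial cells with 34.1, the last 2 with overlapping intervals.

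The LCWE level of Cxcl12 was 4.13-fold that of PBS in fibroblasts (3.94 to 4.33), 5.86-fold in smooth muscle cells (5.0 to 6.84) and 6.16-fold in blood endothelial cells (5.13 to 7.45). A UMI of Cxcl12 was seen in 90.04% of 813 LCWE fibroblasts (median 11494 UMIs) and 59.7% of 868 PBS fibroblasts (median 6215), and after thinning in 63.6% and 30.4%. In blood endothelial cells the shares were 55.2% of 239 and 24.9% of 217, and 25.2% and 7.66% after thinning. Lymphatic endothelial cells had 45.2 CPM in LCWE and 34.1 in PBS, a ratio of 1.32 with an interval that spans 1 (0.694 to 2.70). Markers of fibroblasts were also higher in LCWE blood endothelial cells, 5.38 UMIs per cell against 0.926. These cells held 1396 UMIs of Cxcl12 beside 1285 of the 4 fibroblast markers, and fibroblasts held 14182 beside 231690. The part of fibroblast RNA in the Cxcl12 level of blood endothelial cells was not tested. In smooth muscle cells 1 LCWE cell held 37.6% of the 178 UMIs, and without the top cell of each library the ratio was 3.78.

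Smooth muscle cells, by number, carried 45.0% of all Cxcl12 UMIs in PBS and 0.834% in LCWE. The transitional class, which is in LCWE alone, carried 20.7%.

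Ackr3 (chr1:90203980-90216751, + strand), the scavenging receptor of CXCL12, differed between classes in its direction. Blood endothelial cells had 397 CPM in PBS and 88.1 in LCWE, 4.50-fold lower (3.90 to 5.22). Fibroblasts had 381 CPM in PBS and 531 in LCWE, 1.39-fold higher (1.33 to 1.46), and lymphatic endothelial cells 331 and 389, a ratio of 1.18 whose interval spans 1 (0.956 to 1.45). In PBS the intervals of neighbours in this order (blood endothelial, fibroblast, lymphatic) overlapped, and 15 proliferating stromal cells had 273 CPM. In LCWE the order was fibroblasts, lymphatic endothelial cells, proliferating stromal cells (146 CPM), blood endothelial cells and transitional cells (54.8 CPM), and none of these neighbours overlapped.

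A UMI of Ackr3 was seen in 81.1% of PBS and 42.3% of LCWE blood endothelial cells, and in 43.4% and 12.7% after thinning. No single cell held more than 6.49% of the UMIs in either. LCWE blood endothelial cells held more marker UMIs of other cells: 0.908 T cell marker UMIs per cell against 0.0369, 6.26 macrophage marker UMIs against 0.300, and 22.5 smooth muscle marker UMIs against 5.44. Their own markers stood at 57.4 UMIs per cell against 48.0. These counts per cell are not scaled to depth, and LCWE blood endothelial cells were read deeper. The median was 12090 UMIs in LCWE cells with an Ackr3 UMI and 9052 in those without, against 6541 and 4056 in PBS. The values of their own markers thus give no direction on the CPM scale. Among the 86 LCWE and 198 PBS cells without a leukocyte marker UMI, a subset chosen after seeing the data, Ackr3 was 104 against 397 CPM, 3.82-fold lower (3.03 to 4.86), and Cxcl12 298 against 81.6 CPM, 3.65-fold higher (2.93 to 4.58). Within LCWE, cells with an Ackr3 UMI had 307 CPM of Cxcl12 and cells without one 612. A Cxcl12 UMI was seen in 56.4% and 54.3% of these cells. In PBS blood endothelial cells the direction was opposite, with 82.2 CPM of Cxcl12 in cells with an Ackr3 UMI and 36.8 in the rest. In smooth muscle cells Ackr3 was 10.3 against 2.04 CPM, 5.05-fold higher in LCWE (2.25 to 9.95), from 9 UMIs in 93 LCWE cells and 109 in 4141 PBS cells. That LCWE level lay among those of leukocytes, between the named eosinophils (13.2 CPM) and Mac1 macrophages (8.45 CPM), with overlapping intervals. The part of RNA from other cells in it was not tested.

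Within lymphatic endothelium Ackr3 and Ccl21a were unevenly shared. The 24 LCWE cells without a Ccl21a UMI had 711 CPM of Ackr3, and the 64 with one had 240. In PBS 3 cells lacked Ccl21a, with 656 CPM of Ackr3 against 305 in the other 26.

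Cxcr4 (chr1:128588199-128592293, - strand), the signalling receptor of CXCL12, was a leukocyte gene: 6189 of 6745 LCWE UMIs and 145 of 163 PBS UMIs lay in leukocytes. The T and NK lineage (the authors' class NK/ILC/T cell, which includes innate lymphoid cells) held 39.6% of the LCWE UMIs and monocytes, macrophages and dendritic cells 38.3%. By class, Mono2 monocytes led with 792 CPM (604 to 1019, 22 cells), followed by the named eosinophils with 682, gamma delta T cells with 523, NK cells with 485, NKT cells with 430, Mono1 monocytes with 424 and B cells with 420. Up to B cells each interval overlapped the next, so the order of neighbours is not resolved by the counts. The intervals of Mono2 and the named eosinophils (621 to 747) lay above those of NK cells (444 to 529), NKT cells, Mono1 and B cells (375 to 469). Mac1 macrophages followed with 310 CPM, and CD4 naive T cells (155) and CD8 naive T cells (130) lay at the lower end. By UMIs per cell the class named Mono/Mac/DC led instead of Mono2.

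As a whole, the T and NK lineage had 257 CPM of Cxcr4 in LCWE (2198 cells) and 143 in PBS (75 cells), a ratio of 1.80 (1.39 to 2.38), and a UMI in 53.2% and 42.7% of cells. This class holds other subsets in other shares in each library. In its parts the PBS cells are too few for a ratio: 15 CD8 activated cells had 151 CPM against 206 in LCWE, 16 NK cells 209 against 485, and 12 CD4 naive cells 250.5 against 155. PBS B cells (17) had 430 CPM against 420.

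Outside leukocytes Cxcr4 was low. LCWE blood endothelial cells had 49.4 CPM against 3.001 in PBS (147 against 5 UMIs, 16.5-fold, 6.90 to 51.5), fibroblasts 22.7 against 0.164 (227 UMIs against 1) and smooth muscle cells 22 UMIs against 11. The T cell and macrophage markers given above moved the same way in blood endothelial cells. In fibroblasts T cell markers were at 0.197 UMIs per cell against 0.0115 and macrophage markers at 3.85 against 0.103. Among stromal cells without a leukocyte marker UMI, 10 Cxcr4 UMIs against 1 remained in fibroblasts, 10 against 1 in blood endothelial cells and 2 against 11 in smooth muscle cells.

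Cxcl13 (chr5:95956951-95961068, + strand), the B cell attractant, was a fibroblast gene carried by few cells. Fibroblasts held 95.1% of its LCWE UMIs and 88.8% of its PBS UMIs, at 189 CPM in LCWE and 35.2 in PBS, 5.39-fold higher (4.68 to 6.24). A UMI was seen in 146 of 813 LCWE fibroblasts (18.0%) and 39 of 868 PBS fibroblasts (4.49%), and after thinning in 8.83% and 1.95%. In LCWE 39 cells with 10 UMIs or more held 83.3% of the UMIs of the class. In PBS 1 cell held 90 of 214, and without the top cell of each library the ratio was 8.15. The next class was proliferating stromal cells with 44.1 CPM, where 2 cells held all 47 UMIs. Leukocytes had a UMI in 1.10% of cells, and Treg and activated CD4 T cells 6.88 CPM. Mesothelial markers were also higher in LCWE fibroblasts, 0.573 UMIs per cell against 0.0991, and their part in the Cxcl13 level was not tested.

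Cxcr5 (chr9:44511787-44561877, - strand), the receptor of CXCL13, was found mainly in B cells. LCWE B cells had 145 CPM (119 to 175) with a UMI in 36.2% of 224 cells at a median depth of 2818 UMIs. The dendritic cell class DC3 came next with 51.2 CPM (32.5 to 76.9) and a UMI in 30.5% of 59 cells at a median of 7304 UMIs, or 8.12% after thinning against 19.8% of B cells. B cell markers were at 0.0339 UMIs per DC3 cell and at 19.9 per B cell. CD8 transitional T cells had 9.05 CPM and Treg and activated CD4 T cells 6.88, with overlapping intervals. Non-immune LCWE cells had a UMI in 0.835% of cells at a median of 12137 UMIs. PBS held 3 UMIs in 17 B cells and 7 in all.

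Cxcl14 (chr13:56288643-56296551, - strand), a chemokine of barrier tissues and stroma, had 92 of its 93 PBS UMIs in fibroblasts and 74.3% of its LCWE UMIs there. Fibroblasts had 129 CPM against 15.1, 8.51-fold higher (6.88 to 10.6), with a UMI in 20.3% of cells against 2.07% (8.63% and 1.05% after thinning). In PBS 1 cell held 44.6% of those UMIs, and without the top cell of each library the ratio was 14.5. LCWE proliferating stromal cells had the highest level of any class, 193 CPM, but 2 of their 41 cells held 85 and 67 of 206 UMIs, and without the top cell fibroblasts led. Mac1 macrophages had 48.3 CPM, with a UMI in 14.2% of 282 cells (median 8775 UMIs) against 0.864% of the T and NK lineage (median 3986), and in 4.80% against 0.312% after thinning. Mac1 held 143 Cxcl14 UMIs beside 156 of Cxcl12, the T and NK lineage 19 beside 208, and fibroblasts 1284 beside 14182. The part of fibroblast RNA in the Cxcl14 level of Mac1 was not tested. In blood endothelial cells 37 UMIs stood against 0, at least 6.91-fold higher against a floor of 3 UMIs, and 3 against 0 in cells without a leukocyte marker UMI.

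Ccl19 (chr4:42754525-42756577, - strand), a ligand of CCR7, did not follow the other ligands in fibroblasts. Its level there was 30.7 CPM in LCWE and 48.5 in PBS, 1.58-fold lower (1.34 to 1.86), and short of the 2-fold mark. The same 22.4% of fibroblasts held a UMI in both libraries, although LCWE fibroblasts were read deeper, and after thinning 5.03% in LCWE and 6.95% in PBS did. Per cell the direction turned, with 0.378 UMIs in LCWE and 0.340 in PBS. No cell held more than 6 UMIs. LCWE transitional cells had 16.4 CPM and a UMI in 17.7% of cells, and proliferating stromal cells 9.39 CPM, with overlapping intervals. PBS smooth muscle cells had 76 UMIs in 4141 cells and LCWE smooth muscle cells 5 in 93. Parts of the transcript are shared with the near-identical Gm2564, Ccl19-ps1, Ccl19-ps3 and Gm12407, so reads may have been split or lost.

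Ccl21a (chr4:42772860-42773993, - strand), the other ligand of CCR7, was a gene of lymphatic endothelium. These cells held 14040 of 14329 LCWE UMIs and 7228 of 7281 PBS UMIs. Their level was 15858 CPM in LCWE (88 cells) and 18962 in PBS (29 cells), 1.20-fold lower (1.16 to 1.23 by counting error). Per cell this was 160 against 249 UMIs, and the highest cell held 1311 in LCWE and 1208 in PBS. A UMI was seen in 72.7% of LCWE cells (62.2 to 81.7) and 89.7% of PBS cells (72.6 to 97.8). Lymphatic markers moved the same way (55.4 UMIs per cell against 99.9), and PBS lymphatic cells carried 86.2 smooth muscle marker UMIs per cell against 1.84, whose part in the level was not tested. Gm21541 is 99.3% identical over the whole transcript and had 46 and 21 UMIs, all in lymphatic endothelium, while Ccl21b, Gm13304 and Gm10591 had 0, so which copy the UMIs come from is uncertain.

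In several other LCWE classes 1 cell held much of the Ccl21a count. In LCWE CD4 naive T cells 1 cell held 45 of 52 UMIs together with 10 lymphatic marker UMIs. In LCWE smooth muscle cells 1 cell held 34 of 39, with 12 lymphatic and 75 dendritic marker UMIs, and in LCWE fibroblasts 1 cell held 27 of 56. Leukocytes had a UMI in 2.77% of cells.

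Ccr7 (chr11:99144196-99155077, - strand), the receptor of both, stood highest in the dendritic class DC3. There it reached 4535 CPM (4340 to 4737), 34.5 UMIs per cell and 98.3% of 59 cells, and these 59 cells held 2036 of 4933 LCWE UMIs. B cells followed with 699 CPM (78.6% of cells), then CD8 naive (296), CD4 naive (289) and CD8 transitional T cells (271), whose intervals overlapped. DC2 dendritic cells had 168 CPM, but 12 cells held 63.6% of their UMIs, and Treg and activated CD4 T cells had 147. CD8 activated T cells (52.2), NK cells (43.7) and NKT cells (32.7) were lower. Among dendritic cells the genes known from mature, migrating cells were led by DC3 as well: all 9 of the list had their highest LCWE level there, among them Fscn1 (2110 CPM) and Ccl22 (1007 CPM), which are also among the dendritic markers.

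In the whole T and NK lineage, Ccr7 was 148 CPM in LCWE and 155 in PBS (0.958, 0.744 to 1.25), and relative to the median gene of that comparison its log2 ratio was 0.05. The 17 PBS B cells had 840 CPM against 699, 12 CD4 naive cells 397 against 289 and 15 CD8 transitional cells 481 against 271. In stromal classes Ccr7 was carried by few cells. In LCWE blood endothelium 1 cell held 58 of 75 UMIs with 23 dendritic and 38 macrophage marker UMIs, and cells without a leukocyte marker UMI held 0. In LCWE smooth muscle 2 cells held 26 and 17 of 48, the first with 15 dendritic marker UMIs.

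**Figure D3:**
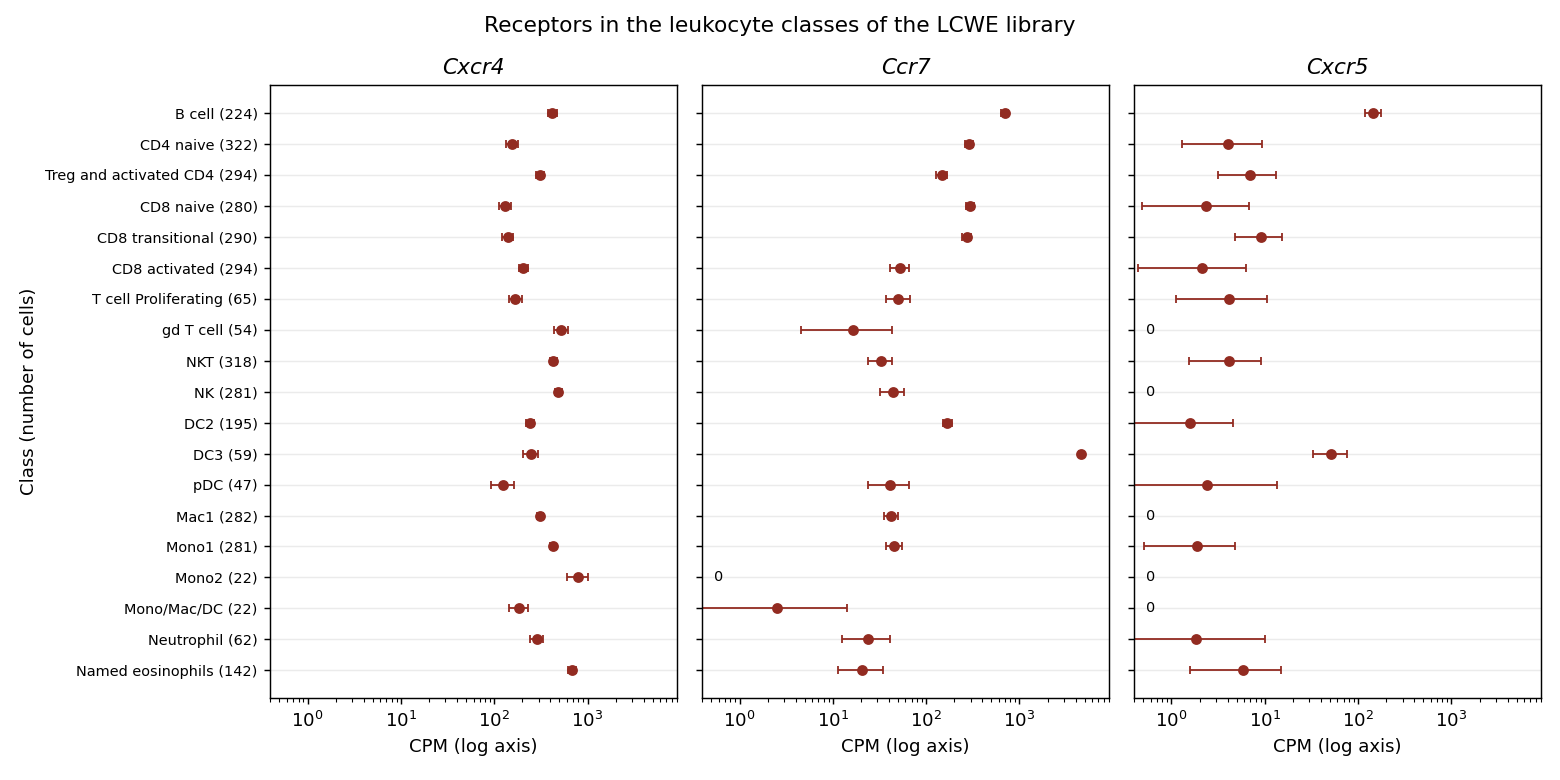
CPM (log axis) of Cxcr4, Ccr7 and Cxcr5 in the leukocyte classes of the LCWE library, with exact 95% Poisson intervals; 0 marks classes without a UMI. Cxcr4 lies between 123 and 792 CPM in all 19 classes, Ccr7 peaks at 4535 CPM in DC3, and Cxcr5 at 145 CPM in B cells.

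Counted over members, more of them were higher than lower in LCWE in each stromal class. A member counted as measured with 20 UMIs in both libraries together, and as called with a 2-fold difference. In fibroblasts 6 of 8 measured members were higher (Cxcl12, Cxcr4, Cxcl13, Cxcl14, Ccl21a and Ccr7) and 0 lower, where 10.4% of 12357 genes were higher and 7.31% lower. Of the 6, Cxcr4 (227 UMIs against 1), Ccl21a (56 against 5) and Ccr7 (31 against 1) reached 20 UMIs only through LCWE. The same held for Cxcr4, Cxcl14 and Ccr7 in blood endothelium and for Cxcr4 and Ccr7 in smooth muscle. Such members could be called higher but hardly lower. Among the 265 LCWE and 772 PBS fibroblasts without a leukocyte marker UMI, a subset chosen after seeing the data, 4 of 6 measured members were higher (background 6.5%) and 0 lower (background 8.68%). In blood endothelial cells 4 of 5 were higher (background 11.5%) and 1, Ackr3, lower (background 6.36%). In the cells without a leukocyte marker UMI, Cxcl12 was higher (background 7.94%) and Ackr3 lower (background 7.78%) of 2 measured. In smooth muscle cells 6 of 7 were higher (background 10.4%) and 0 lower (background 3.6%), and 3 of 6 were higher (background 7.87%) and 0 lower (background 2.36%) in the 32 LCWE and 3946 PBS cells without such a UMI. These were Cxcl12, Ackr3 and Ccr7, the last with 26 UMIs against 1. All 26 lay in 1 cell, which also held 15 dendritic marker UMIs. With 93 LCWE smooth muscle cells, the floor of 3 UMIs stood at 3.43 CPM. In PBS only Cxcl12 (34.7 CPM) lay above it among the measured members, so the others could not be called lower in smooth muscle. A leukocyte marker here is any of the T, B, NK, macrophage, monocyte or neutrophil markers, not a dendritic one. In the T and NK lineage 1 of 7 was higher (background 3.28%) and 0 lower (background 7.02%). That member was Cxcl12, with 208 UMIs against 0 and at least 2.71-fold higher, with a UMI in 8.55% of cells, beside 8.80% of all LCWE leukocytes. With 75 PBS cells the floor of 3 UMIs stood at 7.38 CPM there. The LCWE levels of Cxcl13 (2.70 CPM), Cxcr5 (4.14), Ackr3 (4.91) and Ccl21a (11.7) were too low to be called higher against it. In this class the median of the 1089 genes with 50 UMIs or more lay at -0.11 on the log2 scale, and relative to it Cxcr4 was at 0.96.

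**Figure D4:**
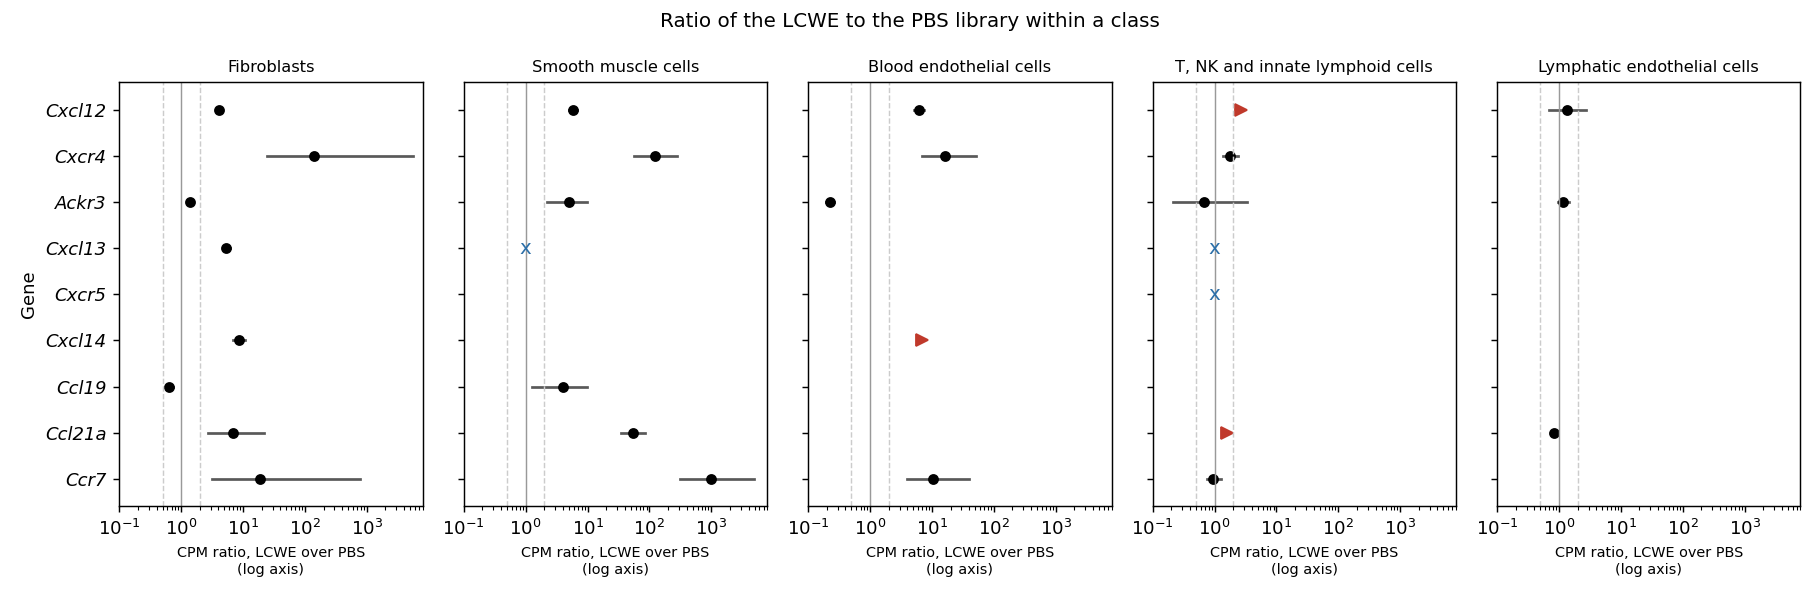
CPM ratio of LCWE over PBS (x axis, log scale) of the members measured in each class. Points are ratios with exact 95% intervals, triangles lower bounds against a floor of 3 UMIs, crosses members without a direction against that floor, and dashed lines mark 2-fold. Ackr3 in blood endothelial cells is the only point beyond 2-fold on the lower side.

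The fibroblast ligands differed within the LCWE fibroblasts themselves. Chl1, a cell adhesion gene chosen after its values were seen, had a UMI in 481 of 813 LCWE fibroblasts and in 0 of 868 PBS fibroblasts. LCWE fibroblasts with Chl1 (median 14431 UMIs) had 234 CPM of Cxcl13 and those without (median 7502.5 UMIs) 85.1, and for Cxcl14 the values were 174 and 22.0. For Cxcl12 they were 1562 and 1091, for Ackr3 563 and 456, and for Ccl19 30.2 and 32.0 with overlapping intervals. Against PBS fibroblasts, LCWE fibroblasts without Chl1 had 3.17-fold more Cxcl12 and 2.42-fold more Cxcl13, and 1.46-fold more Cxcl14. In that comparison 3 of 6 measured members were higher (background 6.48%) and 0 lower (background 5.26%).

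**Figure D5:**
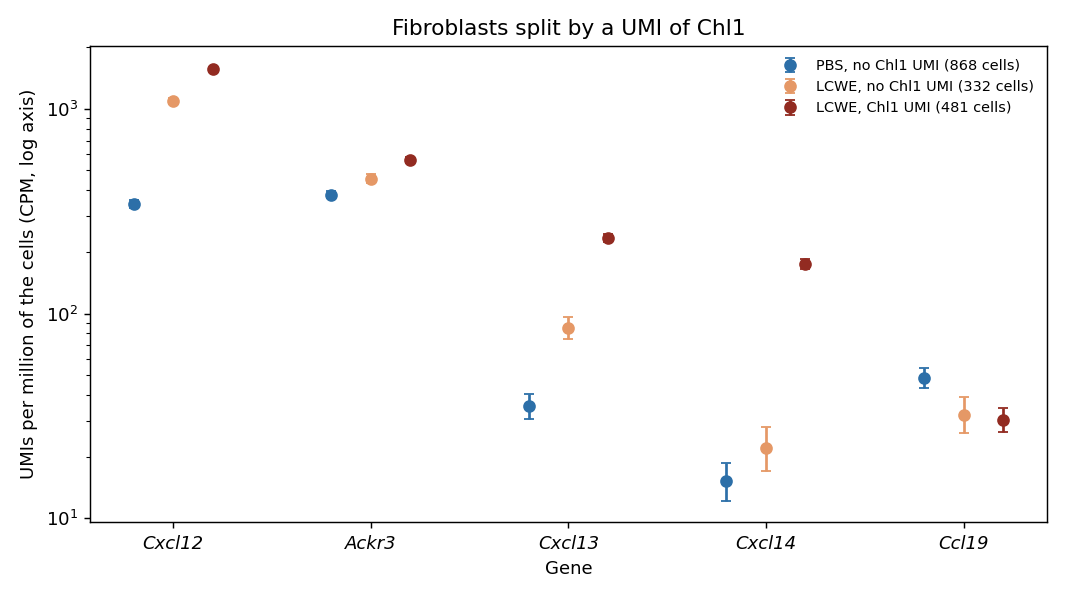
CPM (log axis) of 5 members in PBS fibroblasts and in LCWE fibroblasts without and with a Chl1 UMI, with exact 95% Poisson intervals. Cxcl13 and Cxcl14 are highest in the LCWE cells with Chl1 (234 and 174 CPM), and Ccl19 is highest in PBS (48.5 CPM).

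The ligands also met in the same fibroblasts, as far as depth allows. LCWE fibroblasts with a Cxcl13 UMI (146 cells, median 12941 UMIs) had 2211 CPM of Cxcl12 against 1229 in the rest (median 10929), 250.2 CPM of Cxcl14 against 99.2, and 45.8 CPM of Ccl19 against 27.1. For Ackr3 they had 497 against 539. In PBS the 39 fibroblasts with Cxcl13 had 612 CPM of Cxcl12 against 328, but 11.4 CPM of Ccl19 against 50.8. LCWE fibroblasts with Ccl19 (182 cells) had 2390 CPM of Cxcl12 against 1095 and 354 CPM of Ackr3 against 590.2. In PBS the same pair of values was 399 against 324 for Cxcl12 and 219 against 441 for Ackr3. Among the receptors, 80.2% of LCWE B cells with Cxcr5 and 77.6% of those without held a Ccr7 UMI, and all 18 DC3 cells with Cxcr5 did.

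Genes that work around these members were read in lists, with the same 2-fold mark. The shares of all genes past it were 10.4% higher and 7.31% lower in fibroblasts, 11.5% and 6.36% in blood endothelium, 10.4% and 3.6% in smooth muscle and 3.28% and 7.02% in the T and NK lineage. Of the lymphoid stroma list (17 genes), 14 were measured in fibroblasts, 4 were higher and 1 lower, with a median log2 ratio of 0.23 against 0.04 over all genes. Pdpn, the podoplanin of reticular cells, was at 312 against 55.9 CPM (5.58-fold), and Tnfsf13b, which encodes the B cell survival factor BAFF, at 57.7 against 23.0 (2.51-fold). Tnfsf11, the RANK ligand, had 51 UMIs against 1, and Vcam1, an adhesion molecule, was 1.10-fold higher. In blood endothelium 10 were measured, 4 higher (Ch25h, Nfkb2, Bst1 and Enpp2) and 1 lower (Coch, 1 UMI against 63), with a median of 0.62 against 0.06. Vcam1 was there 1.89-fold and Icam1 1.69-fold lower, short of the mark. In smooth muscle cells 4 of 8 were higher, and in the T and NK lineage 1 of 7.

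Of the 7 high endothelial venule genes, 4 were measured in blood endothelium and 3 were higher. Glycam1, a mucin of these venules, had 376 UMIs against 0 (at least 70.2-fold) in 18.0% of LCWE cells, Ackr1, the chemokine receptor of venules, 83 against 0 (at least 15.5-fold) and Sele 62.6 against 31.2 CPM (2.00-fold). Selp was 1.17-fold higher, and Chst4, Fut7 and Madcam1 had 0, 1 and 2 UMIs in LCWE. The 25 LCWE blood endothelial cells with Ackr1 had 86.4 CPM of Ackr3, and the 214 without had 88.4. In fibroblasts 3 genes of the list were measured, 2 higher and 1 lower. Ackr1 was not particular to blood endothelium: fibroblasts held 84.3% of its LCWE UMIs. They had 66.0 CPM in LCWE and 22.7 in PBS, against 27.9 in LCWE blood endothelium. No gene of the list was measured in smooth muscle cells, and of 2 in the T and NK lineage 0 were called.

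Of the 5 scavengers and processing genes, Ackr1 (2.91-fold) and Dpp4, the peptidase that trims CXCL12, (2.74-fold) were higher in fibroblasts among 4 measured. In blood endothelium Ackr1 was higher and Ackr4, the scavenger of CCL19 and CCL21, lower (7 against 13 UMIs) among 3. Of Ackr4 UMIs in LCWE, 90.4% lay in lymphatic endothelium, at 84.7 CPM against 13.1 in PBS (75 against 5 UMIs, in 11.4% and 6.90% of cells). In smooth muscle Ccrl2 was the only gene measured and was higher, and in the T and NK lineage 0 of 2 were called.

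Of the 8 lymphoid inducers, 7 were measured in the T and NK lineage and 1, Il17a, was higher, with 374 UMIs against 0 (at least 4.88-fold). Ltb, which forms lymphotoxin with Lta, was 447 against 330 CPM (1.36-fold), and Il7r 218 against 135 (1.61-fold). Within LCWE Ltb was at 1018 CPM in gamma delta T cells and 885 in Treg and activated CD4 T cells, and Il17a at 847 and 114. Of the 10 follicular helper and germinal centre genes, 7 were measured there, Bcl6 (287 UMIs against 2) and Pdcd1 (59.99 against 14.8 CPM, 4.07-fold) were higher and S1pr2 lower. Il21 had 8 UMIs in both libraries together. Cr2, a receptor of B cells and follicular dendritic cells, had 51 of its LCWE UMIs in B cells.

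Of the 8 homing and egress genes, 0 were called in the T and NK lineage, where Gpr183 was 1.40-fold higher. Of the 9 receptor signalling genes, 0 were called there, with a median of -0.04 against 0.00 over all genes. In stromal classes leukocyte markers were higher in LCWE as given above, and their part in the counts below was not tested. In fibroblasts, where 10.4% of genes were higher and 7.31% lower, 7 homing genes were higher (among them S1pr1, Itga4, Itgb7, Itgal, Cd69 and Gpr183) and 1 lower, Klf2, at 421 against 964 CPM (2.29-fold). There 3 of 3 measured inducers, 4 of 9 signalling genes and 2 of 6 genes of mature dendritic cells were higher, and 0 of 3 follicular helper genes. In blood endothelium (background 11.5%) 6 of 8 homing genes, 3 of 4 inducers, 5 of 9 signalling genes, 2 of 5 mature dendritic genes and 2 of 3 follicular helper genes were higher. In smooth muscle (background 10.4%) the counts were 6 of 7, 2 of 3, 6 of 9, 2 of 5 and 1 of 4. In the T and NK lineage 0 of 6 mature dendritic genes were called.

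Over the 29 groups of a fine class and library with 20 cells or more, the genes most alike in pattern were found by the Pearson r of log2(CPM + 10). The groups share libraries and depth, and these values are a description. For Cxcl12 they were Mmp2 (0.94), Alpl and Dclk1, for Ackr3 Fndc1 (0.95), Cachd1 and Cyp2j6, and for Cxcl13 A530020G20Rik (0.96), Wt1 and Serpina3m. Cxcl14 was most like Sdk1 (0.87), A530020G20Rik and Ccl8, Ccl19 most like Zfp385b (0.94), Pdgfra and Zcchc5, and Ccl21a most like Sh3gl3 (0.98), Lyve1 and Reln. Cxcr4 was most like Fmnl1 (0.97), Gmip and Lcp1, Cxcr5 most like Cecr2 (0.86), Fam129c and H2-Eb2, and Ccr7 most like Btla (0.83), Il21r and Cd1d1. Among the members, Cxcl13 and Cxcl14 (0.80), Cxcl12 and Ccl19 (0.75) and Cxcl13 and Ccl19 (0.74) were the pairs with the highest r. Wt1 is also among the mesothelial markers, Lyve1 among the lymphatic and Pdgfra among the fibroblast markers.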

How the data were processed

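Single-cell RNA of abdominal aortas was measured in 2 pooled libraries. The authors deposited a matrix of UMI counts, not normalized, and a table that gives each cell a class name and its percent of mitochondrial UMIs. Cell Ranger 3.0.2 and the build mm10 are named in the submitters' processing notes. The filters on cells and the treatment of doublets are not given in the sources used here, and no doublet caller was run. UMIs were summed in each class of each library and divided by all UMIs of the class (CPM), with exact Poisson intervals, exact conditional intervals for ratios and Clopper-Pearson intervals for shares of cells. The share of cells with a UMI was also computed after thinning to 1500 UMIs per cell. Genes with 20 UMIs in both libraries together were compared in classes with 50 cells in both, and lower sums than 3 UMIs were set to 3. Classes with 20 cells in both also received ratios. All 9 members are named. List genes were named by abundance or a 2-fold difference, and others named were chosen after their values were seen. Members and lists were chosen with earlier results of these data known. Some list genes are not reported here. Near-identical transcripts were found with BLAST 2.17.0 (blastn). Scripts were tested on simulated data and run in Python 3.11.15 with NumPy 2.4.6, SciPy 1.17.1, pandas 2.3.3 and Matplotlib 3.10.9.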

Additional observations from a re-analysis of the deposited data

Results flagged for a closer look

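Ackr3 and Ccl19 had log2 ratios of LCWE over PBS of opposite sign in different classes. For Ackr3 the ratio was -2.17 in blood endothelial cells, 0.48 in fibroblasts and 2.34 in smooth muscle cells, the last from 9 LCWE UMIs at a level also seen in LCWE leukocytes. For Ccl19 it was -0.66 in fibroblasts and 2.01 in smooth muscle cells, the last from 5 LCWE UMIs, of which 2 remained in cells without a leukocyte marker UMI. The differences between classes were not tested, since each group is 1 library.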

How the results depend on the processing

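No log2 ratio reversed its called direction, and 179 of 217 stayed within their counting interval under the alternatives, while 38 moved outside it. Of the shares of a gene's UMIs held by its leading class, 9 of 18 stayed within theirs and 9 moved, and 72 of 77 counts stayed within 1.5 times. The count of higher members in the T and NK lineage was 2 with the mean of single-cell CPM and with a floor of 1 UMI, against 1. In alternatives chosen after seeing the data, the count of higher members was 3 against 6 in fibroblasts without a Chl1 UMI, and among cells without a leukocyte marker UMI 3 against 6 in smooth muscle and 1 against 4 in blood endothelium. Fewer cells and fewer measured members remain there. Without the top cell, the log2 ratio of Ccr7 in blood endothelium was 1.67 against 3.39 and that of Ccl21a in smooth muscle 2.89 against 5.76. The leading class held for 8 of 9 members without the top cell and by UMIs per cell. Per cell, Ccl19 in fibroblasts had a log2 ratio of 0.15. Intervals cover counting error only. Fine PBS leukocyte classes have too few cells for ratios. No paired analysis was possible because each group is 1 pooled library.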
